A study of Homo sapiens with 2 samples.

Results

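The genes described here build and police the attachment of chromosomes to the mitotic spindle: the kinetochore, the spindle checkpoint, the anaphase-promoting complex (APC) and the aurora and polo kinases. They were chosen by a rule on symbols that uses no values, though earlier results of these data were known when it was set. It took probe sets whose platform symbol begins with CENP, ANAPC, BUB, SPC, SKA, AURK, PLK or SGO and goes on with a letter or digit (a letter for CENP). It also took NDC80, NUF2, KNL1, MIS12, ZWILCH, ZWINT, ZW10, TTK, MAD2L1, CDC20, CDC16, CDC23, CDC26 and CDC27. Signal peptidase (SPCS) genes, pseudogenes and hyphenated symbols were left out. The rule found 54 genes on 55 probe sets, out of 14812 named genes on 15835 named probe sets. No row of the table used here carried the symbols CENPB, CENPS, CENPE, CENPF, NUF2, SPC24, SPC25, MIS12, ZW10 or ZWILCH, and these genes were not analysed here. The letters of the rule also took in SKAP1 and SKAP2, adaptor proteins of Src-family kinase signalling, and CENPV, a centromere-associated protein that is not a subunit of the assemblies below. They are kept apart as symbols with another role.

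The study asked what follows when MYCN is targeted in BE(2)C cells, an established human line from a neuroblastoma that carries extra copies of this transcription factor gene. Cells received either the siRNA called MYCN2, a single catalogue product against MYCN, or non-targeting control siRNA from another supplier, both carried by a lipid reagent, and RNA was taken after 36 hours. Each group is 1 culture on 1 Affymetrix Human Gene 2.0 ST array, so no value here has a replicate and no p-value is given. The control array bears the word reanalysis in its title, which the sources used here do not explain, and MYCN's own level is not reported here.

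At mitosis each centromere, marked by a variant histone, carries an inner kinetochore of CENP proteins (the constitutive centromere-associated network) on which an outer layer forms that grips spindle microtubules. Kinetochores without microtubules switch on the spindle checkpoint, whose proteins BUB1B, BUB3 and MAD2L1 capture CDC20 and so hold back the APC. Once all chromosomes are attached, CDC20 activates the APC, a ubiquitin ligase that marks securin and cyclin B for destruction, and the sister chromatids part. Many of these genes are transcribed mainly in G2 and mitosis, under control elements near their start sites. In a culture lysed as a whole, fewer cells in mitosis and less RNA per cell cannot be told apart.

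Levels are log2 RMA values, and differences, also on the log2 scale, are MYCN siRNA minus control siRNA. A gene counted as measured when it reached the median of all probe sets on at least 1 array, 4.60 with control siRNA and 4.55 with MYCN siRNA. This kept 52 of the 54 members and 10592 of all genes. PLK5, a polo-like kinase, at 4.54 and 4.06, and SKAP1, at 4.27 and 3.95, lay under both medians and are in no count. The only yardstick of error in these data is the SD between probe sets of the same gene, 0.31 over 380 genes, which leaves out the spread between cultures. It comes from genes with several probe sets, dim probe sets included, while only 1 member had more than 1. It is thus a rough guide for the members. The arrays correlated at r = 0.986, and because their distributions are nearly alike, a change in total messenger RNA per cell would not show. Of 8 sympathetic neuroblast markers, 7 had a row and all 7 were measured, from ISL1, at 8.19 with control siRNA and 7.76 with MYCN siRNA (−0.43), to DBH, which makes noradrenaline, at 9.32 and 10.77 (1.45). The other 5 lay between −0.09 (HAND2) and 0.19 (CHGA). Of 17 markers of fibroblasts, blood, endothelium and epithelium, 6 had a row and 3 were measured, with no value above 6.54. All 3 were lower with MYCN siRNA: the fibroblast gene LUM went from 6.54 to 5.37, the epithelial KRT18 was at −0.38, and the endothelial KDR (4.64 with control siRNA, difference −0.65) counted as measured through the control array alone. Under both array medians lay DCN, a fibroblast gene, at 3.12 and 3.86, EPCAM at 3.96 and 3.83, and CD14 at 4.02 on both arrays. Their summed linear value over the 6 genes was 224 with control siRNA and 153 with MYCN siRNA, and its part in the results was not tested.

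The members as a whole stood close to where all genes stood, with a few subunits far below the control. CENPQ and CENPN of the inner kinetochore and ANAPC1 and ANAPC11 of the APC were 1.70-fold to 2.47-fold lower in the MYCN siRNA array, and PLK2 and SKAP2 were 1.54-fold and 2.84-fold higher. Of the 52 measured members, 28 lay below the control (53.8%, against 48% of all measured genes), 23 lay above it, and BUB3 had the same value on both arrays. The median difference was −0.03, against 0.01 over all measured genes; with each array centred on its own median it turned to 0.02, against 0.06. At least 1.5-fold lower were 4 of the 52 members, against 5.79% of all measured genes. At least 1.5-fold higher were 2 of the 52, against 8.81% of all measured genes. At the 2-fold threshold there were 2 lower members of the 52, CENPQ and ANAPC1, against 1.16% of all measured genes. The only higher member was SKAP2, against 2.21% of all measured genes. With so few members past either threshold, these counts are not read as a result about the members. The differences of 39 members (75%) were smaller than the probe set SD, as were those of 60.2% of all measured genes.

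**Figure D1:**
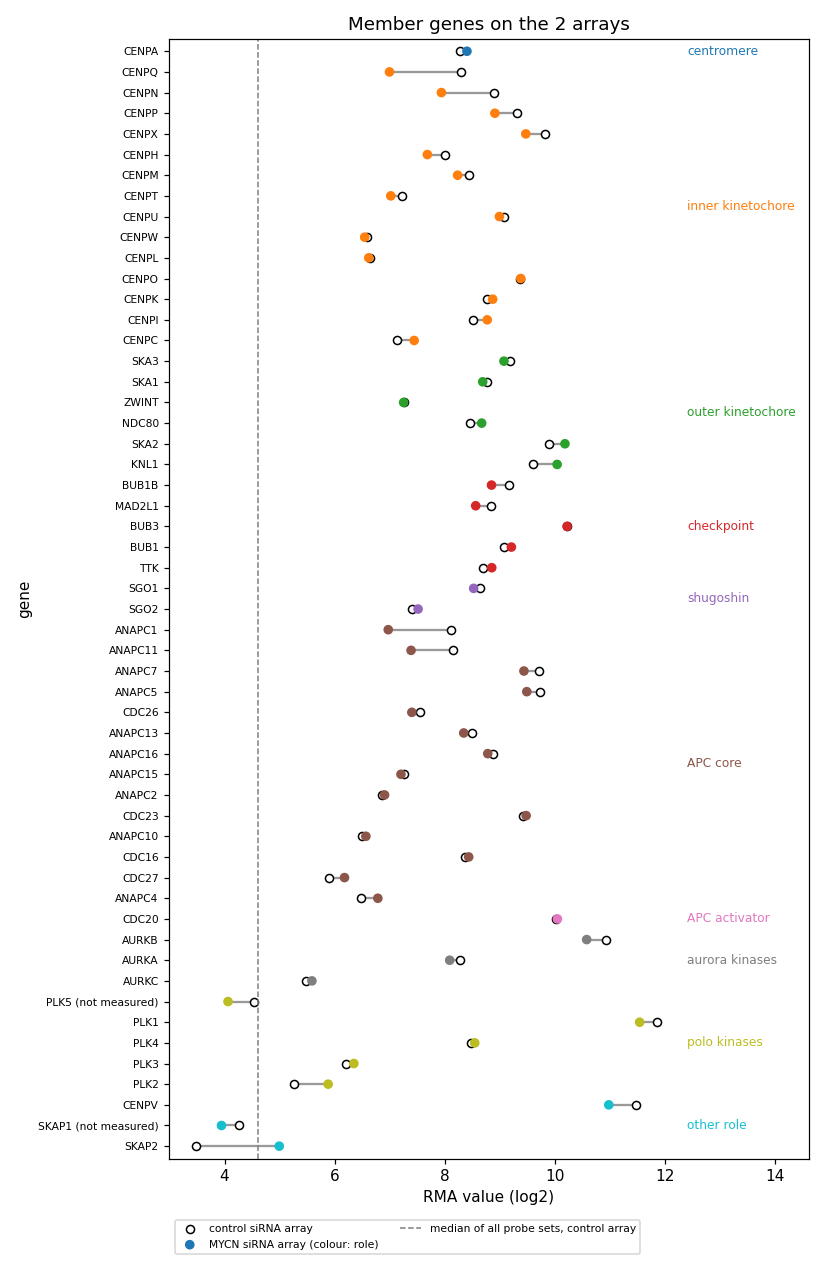
Level of each of the 54 members (rows, grouped by role) as log2 RMA value on the control siRNA array (open circle) and the MYCN siRNA array (filled circle), with the control array's median of 4.60 as a dashed line; levels are to be read within a row, since probe sets of different genes are not on a common scale. CENPQ, CENPN, ANAPC1 and ANAPC11 show the long bars to the left, SKAP2 the long bar to the right.

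Promoter sequences from RefSeq (GRCh38.p14) are shown for the 3 lowest members that have a single listed start, for CDC26, whose neighbour stood far below the control, and for CENPA and CDC20, whose values differed little. Each runs 5′ to 3′ on the gene's strand and ends at the base before the start site. Each covers 250 bases, or stops where a gene on the other strand begins. Capitals mark matches, on either strand, to TTTGAA (the cell cycle homology region, CHR, of genes transcribed in G2 and mitosis), CACGTG (the E-box, to which MYC proteins bind with MAX), CCAAT (the NF-Y box) and GCGGGAA (an E2F element); none of these letter strings holds another. The stretch before CENPQ (chr6:49463254-49463369, plus strand) reaches to the start of MMUT, and that before CDC26 (chr9:113275573-113275657, minus strand) to the start of PRPF4. The others are those of CENPN (chr16:81006964-81007213, plus strand), ANAPC1 (chr2:111884194-111884443, minus strand), CENPA (chr2:26785806-26786055, plus strand) and CDC20 (chr1:43358731-43358980, plus strand).
CENPQ: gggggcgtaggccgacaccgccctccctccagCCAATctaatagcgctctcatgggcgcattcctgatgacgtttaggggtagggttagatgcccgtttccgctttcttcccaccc
CENPN: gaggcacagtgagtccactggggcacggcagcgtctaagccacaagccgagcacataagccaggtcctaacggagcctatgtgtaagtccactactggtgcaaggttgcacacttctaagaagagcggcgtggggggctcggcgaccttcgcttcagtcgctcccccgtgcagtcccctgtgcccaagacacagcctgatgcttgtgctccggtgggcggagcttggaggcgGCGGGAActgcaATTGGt
ANAPC1: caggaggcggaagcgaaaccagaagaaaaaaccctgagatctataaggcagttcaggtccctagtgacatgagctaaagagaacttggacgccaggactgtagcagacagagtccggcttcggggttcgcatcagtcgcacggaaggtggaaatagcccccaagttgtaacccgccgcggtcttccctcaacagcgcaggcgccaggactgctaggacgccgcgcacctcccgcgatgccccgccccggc
CDC26: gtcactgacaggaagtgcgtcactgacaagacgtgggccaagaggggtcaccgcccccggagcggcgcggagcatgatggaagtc
CENPA: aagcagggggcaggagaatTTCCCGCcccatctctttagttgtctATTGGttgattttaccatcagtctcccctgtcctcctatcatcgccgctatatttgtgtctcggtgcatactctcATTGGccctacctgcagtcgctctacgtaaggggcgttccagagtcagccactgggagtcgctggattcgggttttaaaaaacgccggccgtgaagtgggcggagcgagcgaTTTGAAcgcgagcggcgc
CDC20: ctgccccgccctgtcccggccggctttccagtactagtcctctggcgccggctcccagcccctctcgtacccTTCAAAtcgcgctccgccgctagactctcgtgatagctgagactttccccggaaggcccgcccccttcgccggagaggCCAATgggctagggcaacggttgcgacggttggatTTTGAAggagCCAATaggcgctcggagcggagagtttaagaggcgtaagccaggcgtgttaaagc

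No CACGTG lies in any of these 6 stretches, in CENPQ and CENPN as little as in CENPA and CDC20. The stretch before CENPQ holds a single CCAAT, and the stretches before ANAPC1 and CDC26 hold none of the 4 motifs. CENPN has an E2F match and a CCAAT match in inverse orientation in its last 18 bases. CENPA and CDC20 hold TTTGAA before the start together with CCAAT matches, and CENPA holds an E2F match as well. CENPN and ANAPC1 hold TTTGAA too, but just after the start, at bases 4 and 38 of the transcript, outside the stretches printed. A match is a run of letters and says nothing of binding in these cells.

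Starting at the centromere, CENPA, the histone variant that marks it, was at 8.28 with control siRNA and 8.40 with MYCN siRNA, a difference of 0.12 that is within the probe set SD. The inner kinetochore built on it had 14 measured subunits, of which 10 were lower and 4 higher, with a median difference of −0.14. Centred on the array medians, 8 were lower and 6 higher, and the median was −0.09. CENPQ went from 8.30 to 6.99, a difference of −1.31 or 2.47-fold lower, and only 0.387% of all measured genes stood further below the control. CENPN, which reads the CENPA nucleosome, went from 8.88 to 7.94, a difference of −0.95 or 1.93-fold lower. These 2 genes were well apart from the other 12 subunits, which lay between −0.40 (CENPP) and 0.31 (CENPC).

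No other subunit in the subcomplexes of CENPQ and CENPN was 1.5-fold from the control, though CENPP was lower by more than the probe set SD. CENPQ works in the module of CENPO, CENPP, CENPQ, CENPU and ITGB3BP (also called CENP-R, a gene outside the symbol rule), which helps to recruit PLK1 to kinetochores. In that module CENPP went from 9.30 to 8.91 (−0.40), CENPU was at −0.08, CENPO went from 9.37 to 9.38 (0.01) and ITGB3BP was at 0.17. CENPN pairs with CENPL, which was at 6.64 and 6.62 in the control and MYCN siRNA arrays, a difference of −0.02. In the module of CENPH, CENPI, CENPK and CENPM, which links the inner layer to CENPC, the differences were −0.33, 0.26, 0.11 and −0.21. The histone-fold proteins CENPT, CENPW and CENPX, which contact DNA, were at −0.21, −0.04 and −0.35, CENPX going from 9.82 to 9.47. CENPC, the scaffold that ties CENPA nucleosomes to the outer layer, had the highest difference of the inner kinetochore, from 7.13 to 7.44 (0.31). In both modules with a far lower subunit, then, partners of that subunit lay within 0.40 of the control.

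The outer kinetochore had 3 measured genes on each side of the control and a median of 0.11. KNL1, the platform for BUB proteins, was its highest member, from 9.60 to 10.04, a difference of 0.44 or 1.35-fold. NDC80, the microtubule-binding subunit that gives its complex the name, went from 8.45 to 8.67 (0.22). Its partners NUF2, SPC24 and SPC25 were not analysed here. ZWINT, which binds KNL1, was at 7.25 in both arrays. The SKA complex, which holds kinetochores to shortening microtubules, went both ways: SKA2 from 9.89 to 10.18 (0.29), SKA1 from 8.76 to 8.69 (−0.08) and SKA3 from 9.19 to 9.07 (−0.12). None of these 6 genes was 1.5-fold from the control.

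Among the 5 checkpoint genes the median difference was 0.00, and none reached 1.5-fold. The genes of the 2 proteins that bind and inhibit CDC20 most directly were lower: BUB1B, from 9.16 to 8.85 (−0.32), and MAD2L1, from 8.85 to 8.56 (−0.29). Each difference is about the size of the probe set SD. The genes of the kinases that start the signal were slightly above the control, TTK, also called MPS1, from 8.69 to 8.85 (0.17) and BUB1 from 9.07 to 9.21 (0.13). BUB3, which BUB1 and BUB1B use to dock on KNL1, was at 10.22 in both arrays, identical to the last digit given. Under centring, loess and quantile normalization it was between 0.02 and 0.05. The shugoshins, which shield centromeric cohesion, were at −0.11 (SGO1, from 8.64 to 8.52) and 0.12 (SGO2, from 7.40 to 7.51).

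**Figure D2:**
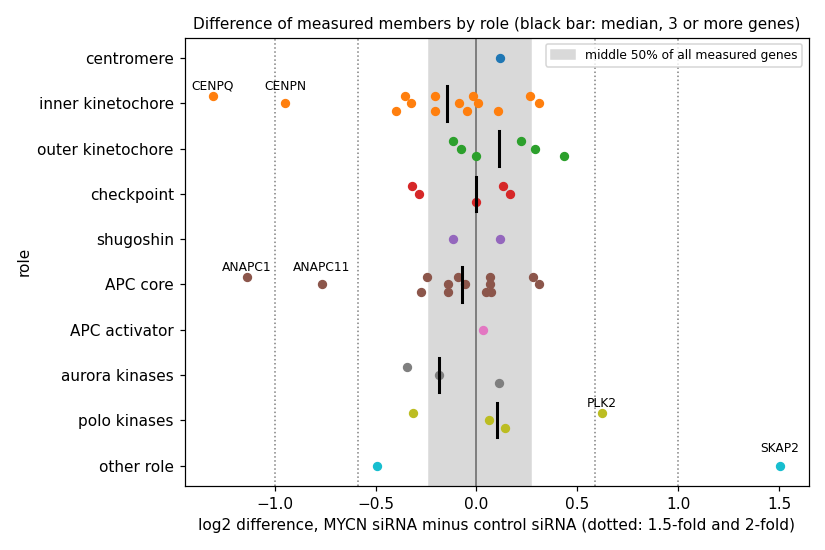
Log2 difference (MYCN siRNA minus control siRNA) of the 52 measured members by role, with the median of each role of 3 or more genes as a black bar, the middle 50% of all measured genes (−0.23 to 0.27) in grey and the 1.5-fold and 2-fold thresholds dotted. CENPQ, CENPN, ANAPC1 and ANAPC11 stand left of the 1.5-fold threshold and PLK2 and SKAP2 right of it, while the medians of the named roles lie between −0.18 and 0.11.

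All 14 core subunits of the APC looked for were measured, 8 of them lower and 6 higher, with a median of −0.07. ANAPC1, the largest subunit and the scaffold between the platform and the catalytic part, went from 8.11 to 6.97, a difference of −1.14 or 2.20-fold lower. The gene has near-identical partial copies on its chromosome, so its value is uncertain: of these, ANAPC1P2 was at 7.98 and 7.76 (−0.22) and ANAPC1P1 was under both array medians, at 3.35 and 2.49. ANAPC11, the RING subunit that receives the ubiquitin-carrying enzyme, went from 8.15 to 7.39, a difference of −0.77 or 1.70-fold lower. Its catalytic partner ANAPC2, a cullin, went from 6.86 to 6.91 (0.04), and ANAPC10, which helps to bind substrates, was at 0.07; after quantile normalization ANAPC2 was at −0.01 and ANAPC10 at −0.0018. The scaffold subunits beside ANAPC1 were at −0.25 (ANAPC5), −0.06 (ANAPC15) and 0.31 (ANAPC4, from 6.47 to 6.78, the highest of the core).

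The arch of tetratricopeptide subunits, to which CDC20 docks, stayed within 0.28 of the control on either side by the averaged values. ANAPC7 was at −0.27, CDC23 at 0.07 and CDC16 at 0.07, and the small subunits that stabilise the arch were at −0.14 (CDC26), −0.14 (ANAPC13) and −0.09 (ANAPC16). CDC27 was the only member with more than 1 probe set, and the pair read very different levels. The bright one went from 10.00 to 10.36 (0.36) and the dim one, far under the array medians, from 1.80 to 2.00 (0.20), so the averaged level of 5.90 in the control array describes neither. CDC20, the activator, was at 10.01 and 10.04, a difference of 0.03. Apart from ANAPC1 and ANAPC11, then, no APC gene was 1.5-fold from the control. The furthest of the others by the averaged values was ANAPC4, at 1.24-fold, while the bright CDC27 probe set was at 0.36.

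Of the aurora kinases, AURKB, which corrects faulty attachments as part of the chromosomal passenger complex, went from 10.92 to 10.57 (−0.35), and AURKA, which acts at spindle poles, from 8.27 to 8.09 (−0.18). AURKC, known for its role in germ cells, was nearer to the array medians, at 5.47 and 5.59 (0.11). PLK1, the main mitotic polo kinase, went from 11.85 to 11.54 (−0.31). PLK4, which controls centriole duplication, went from 8.48 to 8.54 (0.06), and PLK3 from 6.21 to 6.35 (0.14). PLK2, a polo kinase known as a stress and p53 target rather than for driving mitosis, went from 5.26 to 5.88, a difference of 0.62 or 1.54-fold higher. Its level was not far above the array medians. With 16 added to the linear values, its difference was no longer past 1.5-fold, at 0.47.

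Of the symbols with another role, SKAP2 had the highest difference of all members, from 3.49, under the control array's median, to 4.99, or 2.84-fold higher. On the log2 scale the difference was 0.81 with 16 added to the linear values. CENPV was lower, from 11.47 to 10.97 (−0.49). Without these genes the 50 measured members held 1 gene at least 1.5-fold higher, PLK2, and none 2-fold higher, and the SD of their differences was 0.36, against 0.42 with them and 0.43 over all measured genes.

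Genes of the same processes outside the symbol rule were taken from lists. Of 9 measured further kinetochore and centromere-loading genes, 7 were lower (median −0.09). SPDL1, the adaptor (Spindly) that brings dynein to kinetochores, went from 8.74 to 7.97, a difference of −0.76 or 1.70-fold lower, and ITGB3BP was the highest, at 0.17. Of 7 passenger and checkpoint partners, 5 were lower (median −0.10), from the histone H3 kinase HASPIN, at −0.49, to MAD2L1BP, a factor that dismantles checkpoint complexes, at 0.25. No gene of this list was 1.5-fold from the control. Of 12 regulators and substrates of the APC, 4 were lower and 8 higher (median 0.11). CCNA2, cyclin A2, was the exception in size, from 10.84 to 9.80 (−1.04, 2.06-fold lower), while cyclins B1 and B2 (CCNB1 and CCNB2) were at −0.03 and 0.20 and NEK2, a mitotic kinase, was the highest at 0.36.

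Cohesin, condensin and their regulators, which hold and fold the chromatids that kinetochores pull on, had 11 of 13 measured genes above the control (median 0.26), or 10 of 13 after loess. Of the 22 symbols listed, 13 had a row, and the only condensin genes among them were SMC2 and SMC4 (0.13). The median is thus mainly that of cohesin genes and says little of condensin. NIPBL, the cohesin loader, was the highest, from 9.13 to 9.67 (0.54, 1.46-fold), and SMC2, a condensin subunit, the lowest at −0.22. Of 12 regulators of mitotic transcription, 8 were lower (median −0.07). FOXM1 and MYBL2, activators of G2 and mitosis genes, were at 0.01 and −0.07, RBL1, a pocket protein, was the lowest at −0.38, and LIN37, a subunit of the DREAM complex that represses cell cycle genes, was the highest, from 8.32 to 8.96 (0.64, 1.56-fold). Kinesin motors chosen by symbol, mitotic and neuronal, had 14 of 37 genes below the control and a median of 0.05. DNA replication licensing and fork genes, taken as the comparison within the cell cycle, had 23 of 25 below it and a median of −0.38. At least 1.5-fold lower were 5 of the 25, against 5.79% of all measured genes, and none was 2-fold lower. The lowest of these, CDC6, was at −0.70, closer to the control than CENPQ, ANAPC1, CENPN or ANAPC11. The 2 replication genes above the control, GINS4 (0.17) and CLSPN (0.23), were each an average of 2 probe sets. When genes were read from their brighter probe set alone, all 25 replication genes were lower. Under the filter at the 70th percentile, 23 of 23 were lower. With 1 array per group these differences between lists have no test.

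**Figure D3:**
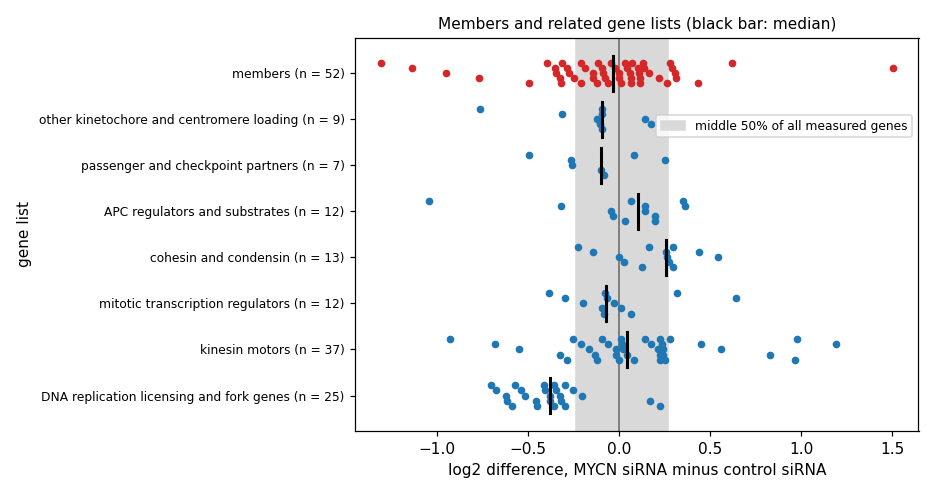
Log2 difference (MYCN siRNA minus control siRNA) of the measured genes of each list, with n in the label, the list median as a black bar and the middle 50% of all measured genes in grey; the members are in red. The median of the members was −0.03, that of the cohesin and condensin list, mainly cohesin genes, 0.26 and that of DNA replication genes −0.38.

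The promoters of the members were compared with their values. RefSeq listed promoters, 250 bases before and 50 after the start, for 45 of the 54 members, all 45 measured, with 63 starts in all. TTTGAA was found in 18 of these 63 promoters (28.6%), against 15.2% of all 35116 promoters and 10.2% of those of measured genes. CCAAT was found in 50.8%, against 34.6% of all promoters and 34.5% of those of measured genes. GCGGGAA was found in 19.0%, against 6.55% and 9.26%. CACGTG was found in 11.1%, against 7.26% of all promoters and 9.34% of those of measured genes. These shares count a gene with several starts more than once. Counted by gene, at any listed start, CACGTG was in 5 of 45 members (11.1%), against 12.3% of 8152 measured genes. Members with TTTGAA at any listed start, 17 genes, were lower in 9 cases, and the 28 without it in 15, with medians of −0.0003 and −0.05. Among all measured genes with a promoter, 46.8% of 1073 with TTTGAA and 47.0% of 7079 without it were lower. CACGTG was present in CENPP, PLK1, ANAPC13, SGO1 and CDC16, with a median of −0.14 over the 5. The first 4 were lower and CDC16 was at 0.07. The 40 members without CACGTG had a median of 0.0046. Of these, 20 were lower, CENPQ, ANAPC1, CENPN and ANAPC11 among them. Over all measured genes with a promoter, 54.5% of 1004 genes with CACGTG and 45.9% of 7148 without it were lower. Of the 9 members with GCGGGAA, 4 were lower (median 0.07), and of the 36 without it, 20 were (median −0.05). Among all measured genes, 45.4% with GCGGGAA and 47.2% without it were lower. For CCAAT, 14 of 26 members with it (median −0.02) and 10 of 19 without it (median −0.08) were lower. Among all measured genes, the shares were 46.1% and 47.6%.

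Some members start back to back with a gene on the other strand, an arrangement looked up after the values were known. Neighbours were looked up for the members only. How frequent such pairs, or such differences within them, are among all genes was not determined. Counting measured genes whose starts lie 1000 bases or less apart and face away from each other, 13 pairs were found, with 34 to 560 bases between the starts. Where a gene lists several starts, the closest were taken. No pair had both genes at least 1.5-fold from the control, and 4 pairs had 1 such gene. Of all measured genes, 5.79% were at least 1.5-fold lower and 8.81% at least 1.5-fold higher. With so few pairs, these counts are not read as a result about the pairs. CENPQ, at −1.31, starts 117 bases from MMUT, the mitochondrial methylmalonyl-CoA mutase, which was at 7.30 and 7.46 (0.16). CENPN, at −0.95, starts 329 bases from CMC2, a mitochondrial protein gene, which was at 11.75 and 11.88 (0.13). ANAPC11, at −0.77, has a listed start 126 bases from ALYREF, an mRNA export factor, which was at 8.24 and 8.26 (0.02). CDC26 was the reverse case. It was itself at −0.14, and PRPF4, a splicing factor whose start lies 86 bases away, went from 9.70 to 8.38 (−1.32). CENPP and NOL8, a nucleolar protein gene, were alike, at −0.40 and −0.34. The signs matched in 6 of the 13 pairs.

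**Figure D4:**
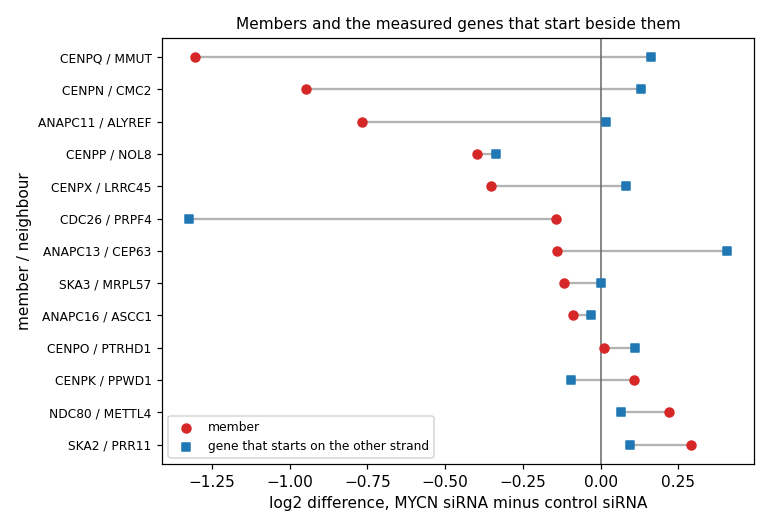
Log2 difference (MYCN siRNA minus control siRNA) of 13 members (red circles) and of the measured gene that starts back to back with each on the other strand (blue squares). In the pairs of CENPQ, CENPN and ANAPC11 the member stands far to the left of its neighbour, and in the pair of CDC26 and PRPF4 the neighbour stands far to the left of the member.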

How the data were processed

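The authors deposited log2 values; RMA is the tool named in the submitters' processing notes. Its software, settings and the run's other arrays, if there were any, were not given in the sources used here. For labelling, the WT PLUS kit was used on 100 ng of RNA, per the labels' protocols. Of 46255 probe sets, the platform annotation gave 15835 a single symbol and none several, and 30420 were unnamed here. All 15835 matched RefSeq (GRCh38.p14), used for gene type, promoter sequences and neighbours. Probe sets of a gene were averaged, and no further normalization was applied. Values were compared by difference, count and median only, in Python 3.11.15 with pandas 2.3.3, and the scripts were tested on simulated data. Members, roles and lists were chosen with earlier results of these data known. Every member is named; of the pathway lists (other kinetochore genes, checkpoint partners, APC regulators, cohesin and condensin, transcription regulators), the highest and lowest gene and those at least 1.5-fold from the control are named. Alternatives were centring, quantile normalization, loess (statsmodels 0.14.6), the brightest probe set, other filters, an offset of 16 and other member rules. The number of arrays limits the precision.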

Additional observations from a re-analysis of the deposited data

How the results depend on the processing

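Over all alternatives run, the counts of members below the control, at least 1.5-fold lower and at least 2-fold lower stayed within 1.5 times the values reported, and the medians of the members and of each role with 3 or more genes moved by less than 0.1. The aurora kinases, with 2 genes left, had no median under the filter at the 70th percentile, and current RefSeq symbols gave the same 54 members. The counts of higher members, at 2 (1.5-fold) and 1 (2-fold), were the exception. With the filter at the 70th percentile both were 0, since fewer dim genes were tested. With 16 added to linear values, which damps dim genes, they were 1 and 0, and without the symbols of another role 1 and 0. Of 361 values of single members under alternatives, 1 moved by more than the probe set SD (SKAP2 with the offset) and none of a member past 1.5-fold changed sign. ANAPC2, ANAPC10, BUB3, CENPL, CENPW and ZWINT, all within 0.0679 of the control, left their side of 0 under centring, quantile normalization or loess. No paired analysis was possible because each group has 1 array, and no sample could be left out for the same reason. Signal over background limits PLK5, SKAP1, SKAP2, PLK2 and AURKC, which lay near or under the array medians.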

Other observations

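BUB3 is among many features with the same value, to 4 decimals, on both arrays. This held for 1859 of the 46255 probe sets (4.02%) and for 123 of the 10592 measured genes, while 30 further probe sets differed by 0.001 or less without being the same. A difference of exactly 0 is therefore far more frequent in the deposited table than a very small difference.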
